A study of Rattus norvegicus with 18 samples.

Results

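The genes described here are the subunits of the mitochondrial respiratory chain and ATP synthase, with their assembly factors and isoforms, in the lungs of rats given a multiwalled carbon nanotube (MWCNT). They were chosen by gene name: symbols beginning with *Nduf* followed by a, b, c, s or v, with *Uqcr*, with *Cox4* to *Cox8*, with *Atp5*, or with the prefixes of the mitochondrial genes (*Mt-nd*, *Mt-co*, *Mt-cyb* and *Mt-atp*), plus *Sdha*, *Sdhb*, *Sdhc*, *Sdhd*, *Cyc1* and *Cycs*. The rule took 112 of the 22081 genes in the table, of which 99 lie in the nuclear genome and 13 in mitochondrial DNA (mtDNA).

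The samples were lungs of 18 male F344 rats, with 3 control and 3 MWCNT-treated rats at each of 3 times called Year 0.5, 1, and 2. Treated rats received MWNT-7, a thick and needle-like MWCNT, at 0.5 mg/kg body weight by intratracheal instillation every 4 weeks from 9 weeks of age, and control rats received the vehicle, saline with Tween 80, on the same schedule. Each library came from a piece of the accessory lobe without a visible tumor, so it held every cell type of the lung, and fewer cells of a type cannot be told apart from less RNA per cell. Total counts per rat ranged from 13297643 to 21130757, and the lung markers *Sftpc* (17720 to 39060 TPM, an abundance scaled for gene length and sequencing depth) and *Ager* (1095 to 2350 TPM) were high in each rat.

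The respiratory chain passes electrons from NADH (complex I) and succinate (complex II) through complex III and cytochrome c to oxygen at complex IV, and ATP synthase (complex V) uses the resulting proton gradient to make ATP. Most subunits are nuclear genes whose protein is imported, while mtDNA encodes a small catalytic set in complexes I, III, IV, and V. Several complex IV subunits have a second gene that is used in particular tissues. COX4I2 replaces COX4I1 in oxygen-sensing cells of the lung vasculature, COX6A2, COX7A1, and COX8B are muscle isoforms, and NDUFA4L2 is a hypoxia-induced relative of NDUFA4.

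Among the 99 nuclear genes were 75 subunits, 8 complex I assembly factors, 8 tissue isoforms, the ATP synthase inhibitor *Atp5if1*, 2 entries named after *Cox7a2*, and 5 second entries or copies. By complex, 45 belonged to complex I, 4 to complex II, 10 to complex III, 22 to complex IV, 17 to complex V, and 1 was cytochrome c. After the filter on low counts, 93, 93, and 92 nuclear genes were tested at Year 0.5, 1, and 2, together with all 13 mtDNA-encoded genes. Levels in TPM, averaged over the 18 rats, ran from 18.1 to 765 for the nuclear subunits with counts (median 140), from 5.38 to 35.5 for the assembly factors (median 11.8), and from 57.5 to 17120 for the mtDNA-encoded genes (median 3948). The highest nuclear levels were those of *Atp5f1b* (765 TPM), *Cox4i1* (592 TPM), and *Cox6a1* (532 TPM), and the highest of all was that of *Mt-co1*. *Ndufa1*, *Cox7b2*, and *Cox6c-ps1* were at 0 counts in all rats, and *Cox8c* was near 0. For the complex I subunit *Ndufa1* this does not show that the gene is silent in lung, since how its reads were assigned was not examined.

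Promoter sequence is shown for a few nuclear genes because short motifs of factors known to act on respiratory genes were found in a larger share of subunit promoters than of all promoters. The sequences are from RefSeq (GRCr8), in which 79 of the 112 symbols matched a protein-coding gene with a promoter, and each window of 100 bases ends at or upstream of the annotated start. Capitals mark CGCATGCG, the core of a site of the factor NRF1, or CCGGAAG, a site of ETS-family factors, on either strand (CCGGAAG read on the other strand is CTTCCGG).
Cycs (chr4:80984872-80984971, minus strand): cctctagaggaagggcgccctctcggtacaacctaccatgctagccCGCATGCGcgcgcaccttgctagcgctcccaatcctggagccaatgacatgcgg
Atp5po (chr11:44657488-44657587, minus strand): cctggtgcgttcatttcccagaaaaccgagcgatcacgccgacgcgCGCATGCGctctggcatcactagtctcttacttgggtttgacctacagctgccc
Ndufa11 (chr9:1637472-1637571, plus strand): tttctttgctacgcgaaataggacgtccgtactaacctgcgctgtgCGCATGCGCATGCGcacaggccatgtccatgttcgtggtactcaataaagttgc
Atp5mg (chr8:54130558-54130657, minus strand): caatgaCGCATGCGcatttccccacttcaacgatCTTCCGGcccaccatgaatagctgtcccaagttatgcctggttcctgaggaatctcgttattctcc
Sdhb (chr5:158547780-158547879, plus strand): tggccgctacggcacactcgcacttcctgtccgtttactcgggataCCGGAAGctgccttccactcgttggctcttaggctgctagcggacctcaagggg
Cox8a (chr1:213833627-213833726, minus strand): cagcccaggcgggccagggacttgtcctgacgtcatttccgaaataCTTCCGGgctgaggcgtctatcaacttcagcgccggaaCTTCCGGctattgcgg

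CGCATGCG was in 8 of the 62 subunit promoters (12.9%), against 2.23% of the 18999 promoters of protein-coding genes in the region from 250 bases before to 50 bases after the start. CCGGAAG was in 19 of 62 (30.6%) against 11.2%, and AAGATGGCG, a site of YY1, in 9 of 62 (14.5%) against 2.29%. These motifs were searched on both strands. A promoter can count for several of them, and whether their matches share bases was not checked. CCAAT was in 18 of 62 (29.0%) and in 5 of the 7 promoters of tissue isoforms, against 38.4%. No letters of the first 3 motifs were in those 7 promoters, a number too small to set the isoforms apart from other genes at these shares. The 100 bases before the start of 3 isoforms described below are shown as well. A match describes the sequence and does not show binding.
Cox7a1 (chr1:94569116-94569215, plus strand): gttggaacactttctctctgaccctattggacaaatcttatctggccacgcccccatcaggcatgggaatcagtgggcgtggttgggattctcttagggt
Cox8b (chr1:205408274-205408373, minus strand): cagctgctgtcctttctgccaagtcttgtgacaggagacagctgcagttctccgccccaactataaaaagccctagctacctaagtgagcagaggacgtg
Ndufa4l2 (chr7:65242069-65242168, plus strand): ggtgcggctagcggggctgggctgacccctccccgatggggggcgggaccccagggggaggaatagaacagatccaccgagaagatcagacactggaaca

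MWCNT treatment was first compared with time-matched controls across the nuclear genes, to see whether the chain as a whole moved. "Higher" and "lower" here mean a Benjamini-Hochberg FDR below 0.05 in edgeR's quasi-likelihood test on the counts with TMM scaling. At Year 0.5, 12 of 93 nuclear genes were higher and 5 lower, at Year 1, 48 were higher and 4 lower, and at Year 2, 33 of 92 were higher and 5 lower. Over all genes tested, 20.2%, 21.6%, and 25.2% were higher and 18.6%, 19.6%, and 24% lower at these times, so that the Year 0.5 count of higher genes was below the background share, and those at Year 1 (51.6%) and Year 2 (35.9%) were above it. The rises were small: none reached the study's criterion for a differentially expressed gene (DEG, which needs besides the FDR a log2 fold change beyond 1 in size), which 6.07%, 6.13%, and 8.17% of all genes met in the upward direction. The count moved with single rats at Year 0.5, falling to 7 without MWCNT rat 1, 5 without MWCNT rat 2, 5 without control rat 1, and 6 without control rat 2, and at Year 1 it was 27 without control rat 2 and 26 without control rat 3. The share of all genes that were higher fell in these fits too. It was 17.2%, 14.9%, 15.6%, and 17.4% in those of Year 0.5, and 16.1% and 15.7% in those of Year 1.

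The 74 tested subunits accounted for most of these calls, with 10 higher and 1 lower at Year 0.5, 44 and 0 at Year 1, and 30 and 0 at Year 2. Their median log2 fold changes were 0.08, 0.33, and 0.21, beside -0.02, 0.00, and -0.01 over all genes tested. These directions depended on how the libraries were scaled. With library size alone in place of TMM the medians of all genes moved to -0.12, -0.13, and -0.18 and those of the subunits to -0.02, 0.20, and 0.04, and 3, 18, and 9 subunits were higher and 8, 0, and 4 lower. On the deposited TPM scale with limma the corresponding medians of the subunits were -0.06, 0.10, and 0.01, with 3, 10, and 8 higher and 11, 4, and 9 lower. Over all genes the higher and lower shares were 15.2% and 28.1%, 15% and 30.1%, and 17% and 36.6% with library size, and 13.8% and 31.4%, 11.9% and 37.8%, and 15.2% and 39.2% on the TPM scale. The median of the subunits exceeded that of all genes by 0.10, 0.33, and 0.23 with TMM. This gap was 0.10, 0.33, and 0.22 with library size, and 0.09, 0.31, and 0.21 on the TPM scale. Rescaling moves all genes of a library together, so the gap could hardly change and its likeness is no check of it. The rats did move it. With 1 rat left out, its smallest and largest values were 0.06 and 0.13 (Year 0.5), 0.26 and 0.38 (Year 1), and 0.19 and 0.30 (Year 2). All 99 nuclear genes together, not the subunits alone, made up 1.30 to 1.52% of TPM in each rat. The group means (control and MWCNT) were 1.39% and 1.32% at Year 0.5, 1.34% and 1.43% at Year 1, and 1.45% and 1.44% at Year 2.

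**Figure D1:**
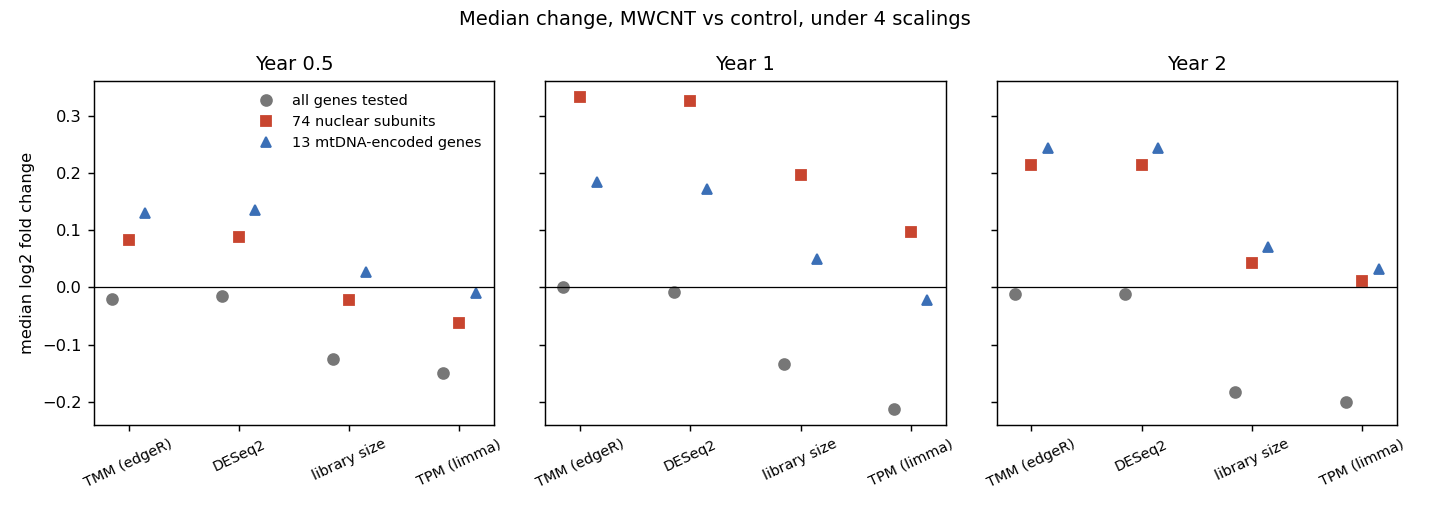
Median log2 fold change (MWCNT vs control, vertical axis) of all genes tested (circles), 74 nuclear subunits (squares), and 13 mtDNA-encoded genes (triangles) under 4 scalings at each time point. The level of every set shifts with the scaling. The distance of the subunits from all genes (0.31 to 0.33 at Year 1) stays similar because rescaling moves all genes of a library together.

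Higher genes were also counted by complex, over all tested nuclear genes of each. At Year 1 there were 13 of 17 in complex V, 16 of 42 in complex I, 2 of 4 in complex II, 5 of 10 in complex III, and 11 of 19 in complex IV. At Year 2 the counts were 8 of 17, 11 of 42, 3 of 4, 3 of 10, and 7 of 18, and at Year 0.5 they were 3 of 17, 3 of 42, 1 of 4, 1 of 10, and 3 of 19. Against the 25.2% of all genes higher at Year 2, complexes I and III were near the background share, and at Year 0.5 all complexes but II were below the 20.2% or near it. These counts include the assembly factors in complex I, a second entry in complex III, isoforms and other entries in complex IV, and *Atp5if1* in complex V. They therefore do not rank the complexes by their subunits, and the difference between complexes was not tested. Of the 8 assembly factors, *Ndufaf7*, which methylates a complex I core subunit during assembly, was higher at all 3 times with TMM (log2 fold changes of 0.48, 0.56, and 0.44). *Ndufaf1* was higher at Year 1 (0.44) and *Ndufaf3* was lower at Year 2 (-0.43). The single lower subunit was *Ndufs4* of complex I at Year 0.5 (-0.21, FDR = 0.047), whose call was lost when any 1 of the 6 rats was left out.

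**Figure D2:**
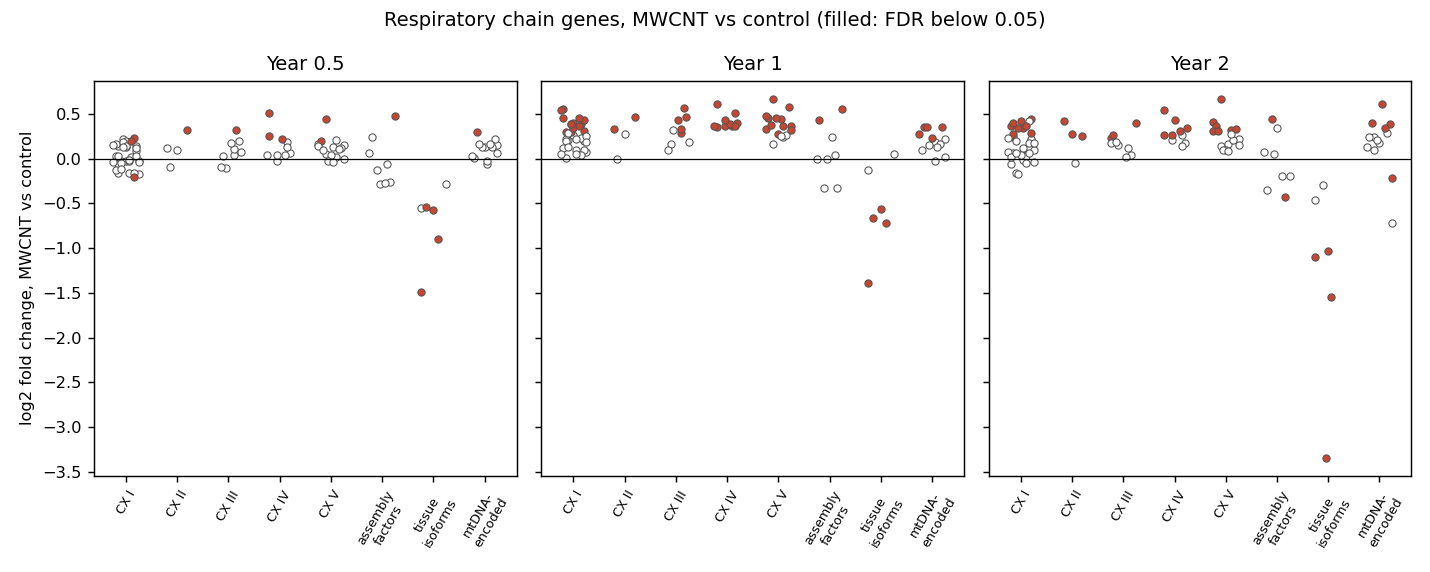
Log2 fold change (MWCNT vs control, TMM scaling, vertical axis) of each tested gene by class at the 3 time points, where CX I to CX V are the nuclear subunits of each complex and filled points have an FDR below 0.05. Points of the 5 complexes lie mostly above 0 at Year 1 and Year 2, while 4 tissue isoforms are filled and below 0 at each time, down to -3.34 for *Cox8b*.

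The nuclear genes that rose under all 3 scalings were few. They were *Atp5pb*, *Cox5a*, *Ndufaf7*, and *Sdhb* at Year 0.5, 11 genes at Year 1, and 9 at Year 2, and *Atp5pb*, *Cox5a*, and *Sdhb* were among them at every time. The share of all genes that rose under all 3 scalings was not counted. On the TPM scale alone it was 13.8%, 11.9%, and 15.2%, and the nuclear genes here were at or below those shares. The remaining genes that rose under all 3 scalings at Year 1 were *Atp5if1*, *Atp5mc1*, *Cycs*, *Ndufa13*, *Ndufb3*, *Ndufb6*, *Uqcr10*, and *Uqcrq*, and at Year 2 *Atp5f1a*, *Atp5if1*, *Cox7b*, *Cycs*, *Ndufa13*, and *Uqcrfs1*.

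*Cox5a* encodes a nuclear subunit of complex IV that is present in all tissues. Its level at Year 0.5 was 247, 257, and 266 TPM in the control rats and 315, 339, and 335 TPM in the MWCNT rats. At Year 1 it was 258, 261, and 258 TPM against 341, 354, and 308 TPM, and at Year 2 it was 230, 240, and 298 TPM against 344, 320, and 298 TPM. The groups did not overlap at any time, although at Year 2 control rat 3 was just under the lowest MWCNT rat. The log2 fold changes were 0.51 (SE 0.06), 0.61 (SE 0.09), and 0.55 (SE 0.10), with FDRs of 0.000383, 0.000828, and 0.0019.

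*Atp5pb* encodes a subunit of the peripheral stalk of ATP synthase, which holds the catalytic head still while the rotor turns. Its level was 92.0, 94.6, and 96.2 TPM in controls and 120, 114, and 115 TPM in MWCNT rats at Year 0.5, and 89.6, 85.5, and 98.1 TPM against 133, 120, and 119 TPM at Year 2. The MWCNT rats were above the controls at both times and at Year 1 (means of 93.8 ± 4.93 and 126 ± 17.95 TPM, SD, n = 3). The log2 fold changes were 0.45 (SE 0.06), 0.67 (SE 0.13), and 0.67 (SE 0.09), with FDRs of 0.000552, 0.00352, and 0.000225. *Atp5if1*, whose product blocks ATP hydrolysis by the synthase, had 0.37, 0.67, and 0.62. Its call at Year 0.5 was lost without MWCNT rat 1 (0.32, FDR = 0.0559), with library size alone (0.26, FDR = 0.0534), and on the TPM scale (0.23, FDR = 0.0761).

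The subunits of complex II, which also acts in the tricarboxylic acid (TCA) cycle, did not move alike. *Sdhb*, the iron-sulfur subunit, was at 137 ± 6.73, 136 ± 8.95, and 137 ± 6.98 TPM in controls and 154 ± 6.65, 159 ± 4.54, and 158 ± 1.72 TPM in MWCNT rats (SD, n = 3) at the 3 times. Its log2 fold changes were 0.32 (SE 0.07), 0.47 (SE 0.08), and 0.43 (SE 0.07), with FDRs of 0.00654, 0.00228, and 0.00126. *Sdha*, the flavoprotein subunit, had TMM-based log2 fold changes of -0.09, 0.00, and -0.05 and was not called. Its TPM was lower in every MWCNT rat than in every control at each time (means of 158, 157, and 149 TPM in controls and 134, 133, and 124 TPM in MWCNT rats). On the TPM scale 31.4%, 37.8%, and 39.2% of all genes were called lower. *Sdhc* and *Sdhd* were higher with TMM at Year 2, while their TPM overlapped between the groups at each time. The difference between the subunits was not tested.

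Of the other reference subunits, *Cycs* (cytochrome c), whose promoter window is printed above, rose with log2 fold changes of 0.29, 0.45, and 0.47, and *Uqcrfs1*, the Rieske iron-sulfur protein of complex III, with 0.43 at Year 1 and 0.40 at Year 2. The catalytic ATP synthase genes *Atp5f1a* and *Atp5f1b* had 0.41 and 0.32 at Year 2, where both passed the test. *Cyc1* passed at Year 1 (0.28) and Year 2 (0.24), and *Ndufs1*, the largest complex I core subunit, at Year 2 (0.40). *Ndufv1*, the NADH-binding subunit, had -0.12, 0.13, and -0.05, and *Uqcrc1* had 0.03, 0.17, and 0.12. Neither passed at any time.

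The tissue isoforms of complex IV went the other way. *Cox4i2*, *Ndufa4l2*, *Cox7a1*, and *Cox8b* were lower in MWCNT rats at all 3 time points under TMM, library size, and TPM scaling, and they were the only respiratory chain genes that met the DEG criterion, *Cox8b* at every time and the others at Year 2. Over all genes, 3.03%, 4.09%, and 8.22% met that criterion in the downward direction. *Cox6a2* and *Cox6b2* did not pass the test at any time. *Cox7b2* and *Cox8c* were not tested.

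*Cox4i2* was at 64.6, 66.2, and 52.9 TPM in the Year 0.5 controls and at 37.0, 37.7, and 36.7 TPM in the MWCNT rats. At Year 1 it was at 57.1, 57.1, and 54.3 TPM against 36.4, 29.1, and 31.1 TPM, and at Year 2 it was at 43.6, 56.1, and 45.4 TPM against 18.1, 20.3, and 22.7 TPM. Treated and control rats were apart at each time, and the lowest level of all 18 rats was in the MWCNT rats of Year 2. Its log2 fold changes were -0.58 (SE 0.10), -0.57 (SE 0.10), and -1.03 (SE 0.12), with FDRs of 0.00241, 0.00176, and 0.000154. Its ubiquitous partner *Cox4i1* had group means between 551 and 631 TPM.

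*Ndufa4l2* was at 60.9, 83.7, and 68.5 TPM in controls and 35.3, 28.8, and 39.8 TPM in MWCNT rats at Year 0.5, at 72.4, 49.4, and 63.1 TPM against 38.7, 27.5, and 29.8 TPM at Year 1, and at 65.5, 60.3, and 54.2 TPM against 19.7, 24.4, and 28.5 TPM at Year 2. The groups did not overlap at any time. The log2 fold changes were -0.90 (SE 0.15), -0.72 (SE 0.17), and -1.10 (SE 0.14), with FDRs of 0.00147, 0.00853, and 0.000235. *Ndufa4*, the ubiquitous gene, had group means between 172 and 191 TPM.

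*Cox8b* had the largest fall. It was at 21.5, 23.0, and 36.5 TPM in controls and 8.24, 9.41, and 8.11 TPM in MWCNT rats at Year 0.5, at 24.9, 30.7, and 33.3 TPM against 4.18, 11.2, and 13.3 TPM at Year 1, and at 30.6, 30.8, and 42.2 TPM against 5.55, 2.09, and 1.13 TPM at Year 2. Every MWCNT rat was below every control, and the Year 2 values rested on 14, 6, and 3 counts in the MWCNT rats against 72, 74, and 92 counts in controls. The log2 fold changes were -1.49 (SE 0.28), -1.39 (SE 0.36), and -3.34 (SE 0.46), with FDRs of 0.00308, 0.0138, and 0.000321, and the last corresponds to a level 10.1-fold lower. Without control rat 3 the Year 1 value was -1.30 with an FDR of 0.0525.

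*Cox7a1* was at 10.95, 13.99, and 11.05 TPM in controls and 7.13, 6.58, and 8.82 TPM in MWCNT rats at Year 0.5, at 11.8, 11.2, and 12.2 TPM against 6.82, 6.09, and 5.905 TPM at Year 1, and at 16.5, 15.5, and 15.5 TPM against 3.897, 4.53, and 5.62 TPM at Year 2. The groups were apart, and further apart at Year 2. The log2 fold changes were -0.53 (SE 0.18), -0.67 (SE 0.14), and -1.54 (SE 0.17), with FDRs of 0.0414, 0.00573, and 8.86e-05. The Year 0.5 call was lost without MWCNT rat 1 (-0.50, FDR = 0.107), MWCNT rat 2 (-0.45, FDR = 0.137), control rat 1 (-0.60, FDR = 0.0646), or control rat 2 (-0.41, FDR = 0.131).

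**Figure D3:**
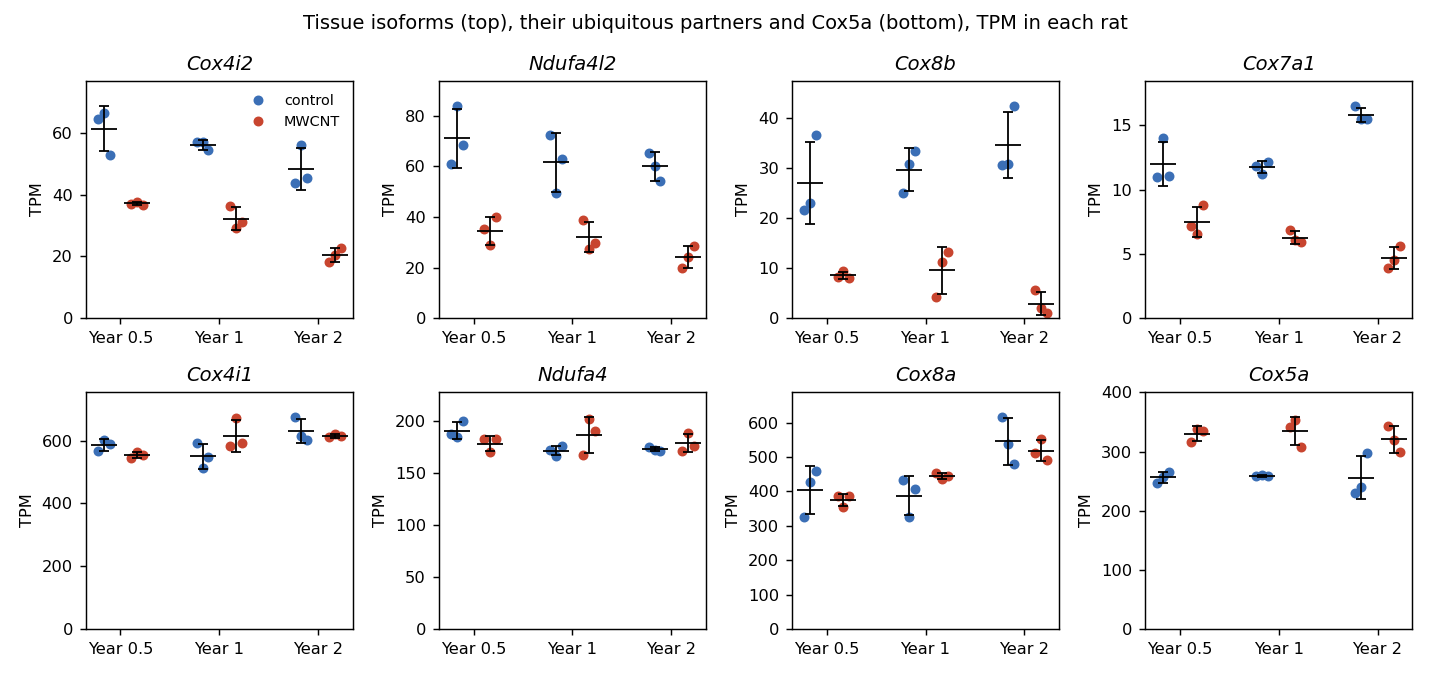
TPM in each rat (points) with the group mean and SD (bars) for 4 tissue isoforms (top) and, below, the ubiquitous genes *Cox4i1*, *Ndufa4*, *Cox8a*, and *Cox5a*, in control (blue) and MWCNT (red) rats. In the top panels all MWCNT rats lie below all controls of the same time, and in the *Cox5a* panel they lie above.

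The ratio of an isoform to its ubiquitous partner within a rat does not depend on scaling between rats. It was compared for 5 isoforms with a partner of known name, with an exact permutation test on mean log2 ratios, two-sided, over all 8000 arrangements within time points (smallest possible p = 0.00025), with Benjamini-Hochberg adjustment over the 5; this measure was added after the levels had been seen. *Cox7a1* was not included, because it is not settled here whether the entry *Cox7a2l2* (228.5 TPM on average) stands for its ubiquitous partner *Cox7a2*. *Cox4i2* was at 10.4, 10.2, and 7.71% of *Cox4i1* in controls and 6.70, 5.28, and 3.31% in MWCNT rats at the 3 times, 1.91-fold lower on average (exact permutation p = 0.00025, adjusted 0.000417). *Ndufa4l2* was at 37.3, 35.9, and 34.7% of *Ndufa4* in controls and 19.4, 17.5, and 13.5% in MWCNT rats, 2.18-fold lower with the same p-values. *Cox8b* was at 6.64, 7.79, and 6.49% of *Cox8a* in controls and 2.30, 2.15, and 0.565% in MWCNT rats, 5.41-fold lower, again with the same p-values.

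*Cox6b2*, an isoform known from testis, was 1.32-fold lower relative to *Cox6b1_1* (exact permutation p = 0.024, adjusted 0.03), although its own level passed no test in the edgeR fits. *Cox6a2*, the heart and skeletal muscle isoform, was at 5.42, 5.24, and 4.78% of *Cox6a1* in controls and 3.84, 3.53, and 2.63% in MWCNT rats. Its spread within groups was wide (0.0851 to 10.6% in the Year 2 controls), and the exact permutation p was 0.971.

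Heart muscle RNA was present in the libraries to a varying extent, and its level is given beside the muscle isoforms. The summed level of 17 heart muscle markers ranged from 84.5 to 1010 TPM in controls and from 21.1 to 296 TPM in MWCNT rats, and 10 of the 15 markers tested were lower at Year 0.5, 2 of 15 at Year 1, and 2 of 13 at Year 2, with none higher. Among all genes 18.6%, 19.6%, and 24% were lower, so that only the Year 0.5 count was above the background share. The median sum was nevertheless lower in MWCNT rats at each time: 412, 539, and 339 TPM in controls and 172, 210, and 91.3 TPM in MWCNT rats. The groups overlapped at Year 1 and Year 2. Control rat 1 of Year 2 had 0 counts of *Myh6* (alpha myosin heavy chain), *Csrp3*, and *Mb* (myoglobin). The library label of this rat ends in b and all others end in r, and what these letters mean is not given. In that rat *Cox6a2* was at 0.572 TPM, against 21.8 and 55.8 TPM in the other controls of Year 2, whereas *Cox8b* was at 30.6 TPM and *Cox7a1* at 16.5 TPM, both above every MWCNT rat of Year 2. That rat's summed heart marker level, 84.5 TPM, lay within the 80.1 to 156 TPM of the MWCNT rats at Year 2. MWCNT rat 1 of Year 1 was the other rat nearly without heart RNA, with a sum of 21.1 TPM, 3 counts of *Myh6*, and 0 of *Csrp3* and *Mb*. It had the lowest *Cox8b* of its group (4.18 TPM, against 11.2 and 13.3 TPM) and the lowest *Cox6a2* (12.5 TPM, against 27.3 and 17.03 TPM), but the highest *Cox7a1* (6.82 TPM). The part of heart RNA in the falls of *Cox8b* and *Cox7a1* was not tested. For *Ucp1*, which defines brown fat, counts were 0 in all groups but the Year 2 controls (at most 2), and of the brown fat markers tested 1 of 3, 2 of 2, and 1 of 2 were higher, *Fabp4*, which macrophages also express, among them each time.

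**Figure D4:**
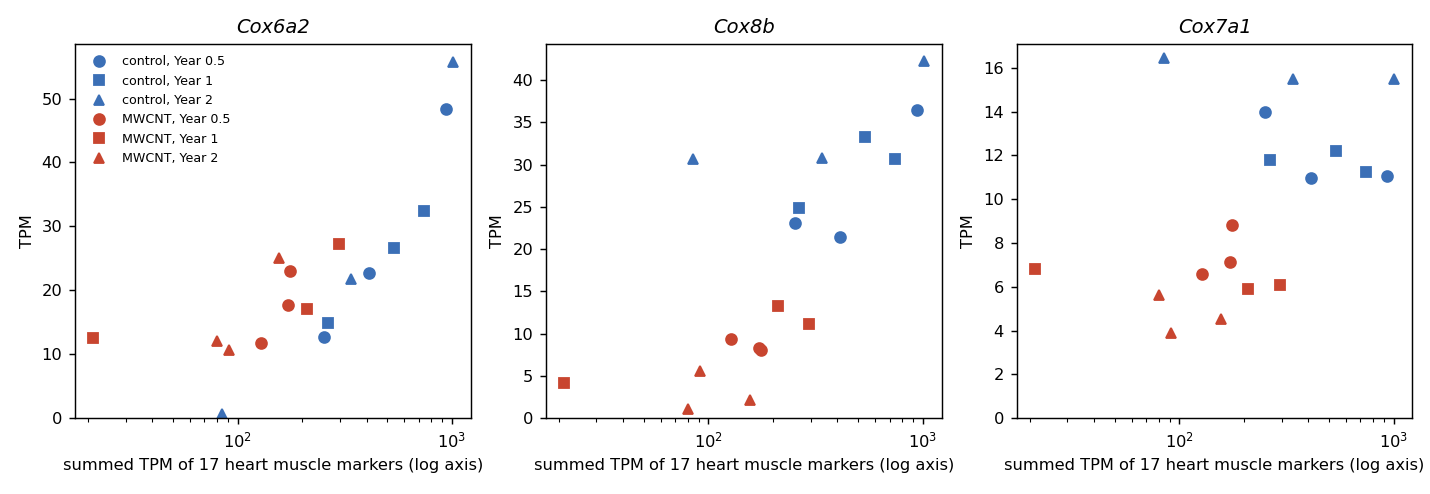
TPM of *Cox6a2*, *Cox8b*, and *Cox7a1* (vertical axes) against the summed TPM of 17 heart muscle markers (horizontal log axis) in each of the 18 rats, by treatment (color) and time (shape). The Year 2 control with a sum of 84.5 TPM has *Cox6a2* at 0.572, *Cox8b* at 30.6, and *Cox7a1* at 16.5 TPM, and the Year 1 MWCNT rat with a sum of 21.1 TPM has 12.5, 4.18, and 6.82 TPM.

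Markers of vessel cells were lower in MWCNT rats too. Of 8 pericyte markers, 7 were lower at Year 0.5, 6 at Year 1, and 4 at Year 2, with 0, 1, and 1 higher, and their summed level was 313 to 327, 283 to 297, and 242 to 267 TPM in controls and 182 to 207, 144 to 190, and 174 to 198 TPM in MWCNT rats. All 6 endothelial markers tested were lower at each time, with summed levels of 2696 to 2843, 2466 to 2600, and 2226 to 2664 TPM in controls and 1133 to 1585, 1010 to 1423, and 750 to 1035 TPM in MWCNT rats. *Cox4i2* and *Ndufa4l2* had their most negative values at Year 2. At that time the fewest pericyte markers were called lower, and the median summed endothelial level of MWCNT rats was lowest. At Year 2 the pericyte genes *Pdgfrb* (-0.03) and *Rgs5* (0.30) did not pass the test and *Higd1b* was lower (-0.82). Macrophage markers were higher (9, 9, and 10 of 10), as were all 6 markers of alveolar type 2 cells. The median summed level of neutrophil markers was higher at each time. Those of club cell, ciliated cell, alveolar type 1, and red cell markers were lower at each time. At Year 2 these 4 were 18510, 84.2, 5541, and 17740 TPM in controls and 10560, 30.9, 3110, and 4208 TPM in MWCNT rats. The part of these shifts in the changes of the respiratory chain genes was not tested.

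The mtDNA-encoded genes are transcribed together from both strands of the mitochondrial genome and cut into single messages, so their shares were compared as well as their levels. The 13 genes took 3.08 to 4.11% of all counts in a rat (the 95% Wilson intervals were at most 0.021 percentage points wide and cover counting error only). Group means in control and MWCNT rats were 3.68 ± 0.324 and 3.91 ± 0.165% at Year 0.5, 3.36 ± 0.125 and 3.65 ± 0.197% at Year 1, and 3.40 ± 0.475 and 3.96 ± 0.161% at Year 2 (SD, n = 3). The groups overlapped at each time. Set against the nuclear genes, the summed TPM of the mtDNA-encoded genes was 5.21 and 5.56 times that of the nuclear genes in control and MWCNT rats at Year 0.5, 4.90 and 4.66 times at Year 1, and 4.53 and 5.00 times at Year 2, and the groups overlapped at each time. The median log2 fold changes with TMM were 0.13, 0.18, and 0.24 for the 13 mtDNA-encoded genes, beside 0.08, 0.33, and 0.21 for the nuclear subunits, and the difference between the genomes was not tested. Control rat 3 of Year 2 (3.94%) stood apart from the other 2 controls of that time (3.08 and 3.16%).

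Per gene, 1 of the 13 passed the test at Year 0.5 (background 38.8% of genes in either direction), 5 at Year 1 (41.2%), and 5 at Year 2 (49.2%). The higher genes were mostly complex IV subunits: *Mt-co1* at all 3 times with log2 fold changes of 0.30, 0.36, and 0.61, *Mt-co2* at Year 1 (0.36) and Year 2 (0.40), *Mt-co3* at Year 1 (0.23) and Year 2 (0.39), *Mt-nd4l* at both (0.35 and 0.35), and *Mt-nd3* at Year 1 (0.28). *Mt-nd6* was lower at Year 2 (-0.21), a call that was lost in 5 of the 6 fits without 1 rat (FDRs of 0.0668 to 0.169 in edgeR). These calls were not stable: the count at Year 2 was 12 without control rat 3, 3 without control rat 1, and 3 without MWCNT rat 1, at Year 1 it was 1 without control rat 2 or 3 and 2 without control rat 1 or MWCNT rat 1, and at Year 0.5 it was 4 without control rat 1 and 0 without any other rat. With library size alone 0, 1, and 2 genes were called. None of the rises was called in all 3 scalings, while the fall of *Mt-nd6* at Year 2 was. On the TPM scale *Mt-co3* at Year 1 had -0.0042.

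The make-up of the mtDNA-encoded counts differed more sharply than their total. *Mt-co1*, the catalytic core of complex IV, took 36.7, 35.4, and 36.6% of the counts of the 13 genes in the Year 0.5 controls and 38.7, 39.2, and 39.2% in the MWCNT rats. At Year 1 its share was 36.3, 37.3, and 36.6% against 39.1, 39.8, and 39.3%, and at Year 2 it was 32.2, 33.3, and 35.2% against 40.3, 38.3, and 39.1%. The MWCNT rats were above all controls at each time, by 3.73 percentage points on average (exact permutation within time points, two-sided, p = 0.00025, adjusted over 13 genes 0.00065). These shares were also examined after the levels had been seen, and because they add to 100% a larger share of 1 gene lowers the others.

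*Mt-cyb*, the mtDNA-encoded subunit of complex III, took 9.65, 9.42, and 9.81% in the Year 0.5 controls against 8.60, 8.43, and 8.53%, and 9.97, 10.1, and 9.81% in the Year 2 controls against 8.31, 8.68, and 8.70%. *Mt-nd6*, the one protein gene read from the other strand, took 0.622, 0.694, and 0.643% against 0.569, 0.548, and 0.564% at Year 0.5 and 0.869, 0.743, and 0.668% against 0.487, 0.505, and 0.490% at Year 2. Both were lower in every MWCNT rat than in every control of the same time, by 1.16 and 0.158 percentage points on average (exact permutation p = 0.00025, adjusted 0.00065 for each). *Mt-nd1* and *Mt-nd5* had the same p-values, with differences of -0.392 and -0.452 points, and *Mt-nd2* (-0.362), *Mt-nd4* (-0.592), *Mt-nd3* (-0.0866), and *Mt-atp6* (-0.505) were also lower after adjustment (0.00108, 0.00139, 0.0158, and 0.0206, exact permutation). *Mt-co2*, *Mt-co3*, *Mt-nd4l*, and *Mt-atp8* did not pass (adjusted exact permutation p = 0.256, 0.106, 0.931, and 0.291).

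Genes that overlap on mtDNA limit what single values mean, since neither the strand setting nor the handling of shared reads is given in the sources used here. *Mt-atp8* had 32 to 273 counts where the overlapping *Mt-atp6* had 41434 to 76999, and its 3 controls of Year 2 had 273, 201, and 32 counts. *Mt-nd4l* overlaps *Mt-nd4*, and *Mt-nd6* overlaps the end of *Mt-nd5* on the opposite strand. Nuclear copies of mtDNA can also share reads with these genes.

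**Figure D5:**
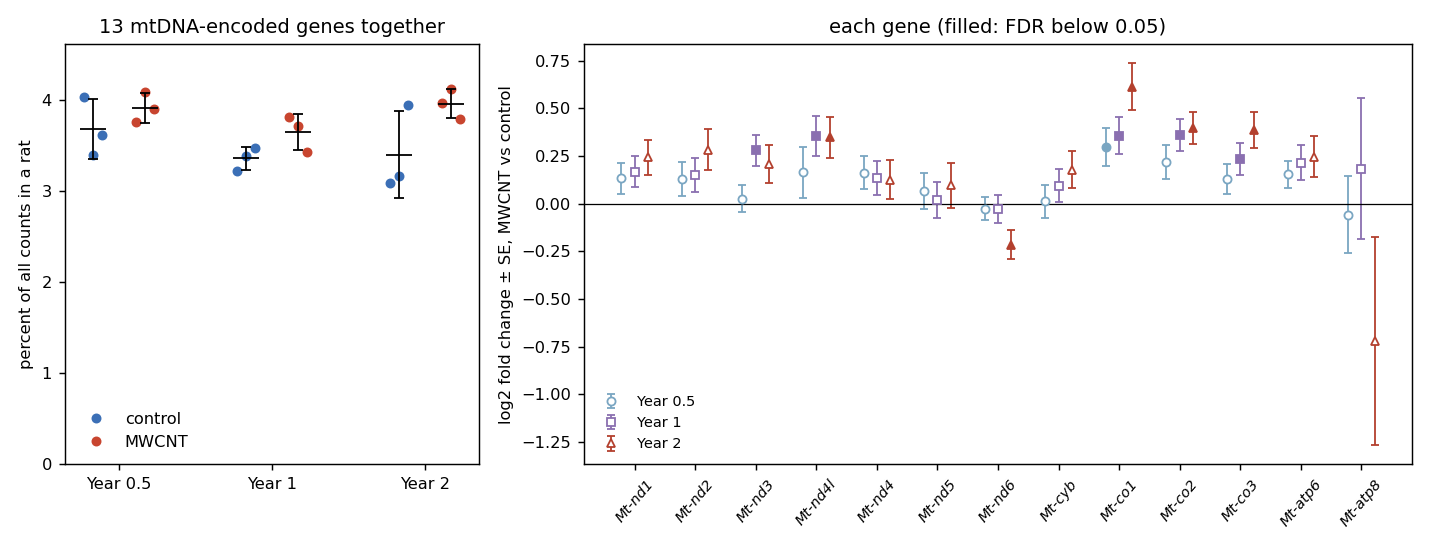
Left, percent of all counts taken by the 13 mtDNA-encoded genes in each rat (points), with the group mean and SD (bars). Right, log2 fold change with SE of each gene at the 3 times (filled points have an FDR below 0.05); *Mt-co1* reaches 0.61 at Year 2 while *Mt-nd6* is at -0.21.

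Time was examined in 1 model of all 18 rats. The treatment effect at Year 2 differed from that at Year 0.5 in 1 of the 112 genes, *Cox7a1*, with an interaction of -0.9995 (SE 0.21, edgeR FDR = 0.0287), where 1.31% of all genes passed (0.856% upward and 0.451% downward). *Cox7a1* rose from 12.0 ± 1.73 to 15.8 ± 0.560 TPM in controls, which did not pass the test on its own, and fell from 7.51 ± 1.17 to 4.68 ± 0.873 TPM in MWCNT rats (SD, n = 3). The interaction passed without MWCNT Year 0.5 rat 2, control Year 0.5 rat 2, MWCNT Year 2 rat 3, or control Year 2 rat 3, and was lost without any of the other 8 rats, with FDRs of 0.0573 to 0.0948 and values of -1.04 to -0.90. For the same contrast *Cox8b* gave -1.86 with an adjusted p of 0.0397 in DESeq2.

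Within controls, 4 genes differed between Year 2 and Year 0.5 (background 6.65%, or 2.65% higher and 4% lower): *Ndufs1* was lower (-0.37), and *Cox8a* (0.45), *Uqcr10* (0.44), and *Ndufs7* (0.28) were higher. The count was 0 without control Year 0.5 rat 1 or control Year 2 rat 2, 1 without control Year 2 rat 1, and 8 without control Year 2 rat 3. Within MWCNT rats, 16 genes differed (background 13.5%, or 6.65% higher and 6.87% lower). *Cox4i2* (-0.78), *Cox7a1* (-0.59), and *Cox8b* (-1.48) were lower, and 12 subunits and the inhibitor *Atp5if1* were higher, led by *Cox8a* (0.55) and *Uqcr11* (0.49). Leaving out any 1 of the 6 MWCNT rats gave 4 to 9 genes. *Cox8a* and *Uqcr10* were higher at Year 2 in both treatments, and no difference between the treatments in that rise was called.

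The other nuclear genes of mitochondria were read beside the chain from lists of their functions, and the examples named were picked once their values were known. The counts are to be set against the 20.2%, 21.6%, and 25.2% of all genes that were higher and the 18.6%, 19.6%, and 24% that were lower. Of 18 TCA cycle genes, 6, 6, and 10 were higher at the 3 times and 0, 1, and 0 lower, led by *Fh* (fumarate hydratase; log2 fold changes of 0.67, 0.99, and 1.22). Of 17 genes of fatty acid oxidation, 3, 5, and 9 were higher, including both subunits of the trifunctional protein, *Hadha* (0.26, 0.31, and 0.39) and *Hadhb* (0.55, 0.67, and 0.67), and 1, 0, and 0 were lower. The share higher was above the background at each time for the TCA cycle (33.3%, 33.3%, and 55.6%), and near it for fatty acid oxidation until Year 2 (17.6%, 29.4%, and 52.9%). Of 71 or 72 tested genes of the mitochondrial ribosome, 1, 22, and 8 were higher and 1, 0, and 1 lower, which is below the background at Year 0.5 and Year 2.

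Assembly genes outside the naming rule had 2, 5, and 4 of 30 higher and 1, 0, and 0 lower, below the background share at each time, with *Coa3*, which acts in the making of MT-CO1, at 0.35, 0.73, and 0.56. In the list of biogenesis and mtDNA expression, 1, 3, and 6 of 19 genes were higher (5.26%, 15.8%, and 31.6%) and 1 was lower at each time. The lower one was *Ppargc1a* (PGC-1 alpha, a coactivator of mitochondrial biogenesis), with -1.22, -1.13, and -0.99, and its relative *Ppargc1b* had 0.38, 0.76, and 1.43, of which the last 2 passed. *Tfam* and *Nrf1*, which drive mtDNA transcription and nuclear respiratory genes, did not pass at any time. Among 11 genes for mitochondrial antioxidants and uncoupling, *Prdx5* (1.58, 1.84, and 1.98) and *Sod2* (1.44, 1.75, and 1.73) had the largest rises, and 3, 6, and 6 genes were higher (27.3%, 54.5%, and 54.5%) and 3, 2, and 3 lower. Of 13 genes of the outer membrane and cristae, 2, 2, and 5 were higher (15.4%, 15.4%, and 38.5%) and 0, 0, and 1 lower.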

How the data were processed

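RNA was sequenced from the lungs of 18 rats. The authors mapped the reads with CLC Genomics Workbench (version 22) and deposited whole-number read counts per gene without normalization, and TPM values that they made from the same reads. The submitters' processing notes name the builds Rnor 6.0 and rn6. How reads mapping to several places were treated, strand, and RNA selection are not given in the sources used here. The RPKM columns, the CPM columns (a TMM-adjusted signal made by the authors), and the authors' comparison columns (fold changes and p-values) were also deposited but not used here.

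Groups were taken from the sample labels, and n was 3 rats per group (13297643 to 21130757 counts per rat). Counts were filtered with filterByExpr (minimum count 10, minimum total 15), scaled with TMM, and tested in R 4.3.3 with edgeR 4.0.16 (quasi-likelihood), in the 6 rats of a time point, or in a model of all 18 rats for time contrasts. P-values were adjusted over all genes tested by the Benjamini-Hochberg method, at an FDR of 0.05. The procedure was tested on simulated data. TPM were tested on a log2 scale with a pseudocount of 1 in limma 3.58.1. That scale understates changes of low genes. DESeq2 1.42.0, other filters and scalings, and leaving out each rat were tried as alternatives.

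The members and lists were chosen with earlier results of these data known. Genes named are the mtDNA-encoded genes, tissue isoforms with their ubiquitous partners, a set of reference subunits, the 5 called genes with the largest rise and fall at each time, and up to 5 genes called for the interaction and for the control time contrast; other names were chosen after their values were seen. Ratios and shares were tested by exact permutation in Python 3.11.15 with SciPy 1.17.1.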

Additional observations from a re-analysis of the deposited data

Results flagged for a closer look

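*Cox7a1* is listed because the effect of MWCNT treatment differed between time points by a test of the difference itself: the treatment effect at Year 2 minus that at Year 0.5 was -0.9995 on the log2 scale (edgeR FDR = 0.0287). Groups of 3 rats are too small for a test of single outlying samples, so none was made.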

How the results depend on the processing

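Counts are given in the order of the 3 time points. Nuclear genes higher in MWCNT rats numbered 12, 48, and 33, and 4, 20, and 10 with library size alone, 4, 11, and 9 with limma on TPM (pseudocounts of 1 and 0.1), and 0, 0, and 0 with the DEG criterion. Nuclear genes lower numbered 5, 4, and 5, and 14, 4, and 10 with library size alone, 17, 10, and 16 on TPM, and 1, 1, and 4 with the DEG criterion. MtDNA-encoded genes called numbered 1, 5, and 5, and 0, 1, and 2 with library size alone, 3 and 8 with DESeq2 at Year 0.5 and Year 2, 1 and 1 on TPM at Year 1 and Year 2, 0 at each time with the DEG criterion, 2 and 9 in 1 model of 18 rats at Year 0.5 and Year 2, and 0 at Year 0.5 with at least 10 counts in every rat. The interaction gave 2 genes in DESeq2 and 0 when only the groups in the contrast were fitted, and the control time contrast gave 7 and 0. The cause was not tested, except that a stricter criterion passes fewer genes by construction. Leaving out 1 rat gave 5 to 14, 26 to 48, and 28 to 47 nuclear genes higher, 3 to 4, 3 to 4, and 5 to 6 lower, 0 to 4, 1 to 5, and 3 to 12 mtDNA-encoded genes, 0 to 1 for the interaction, 0 to 8 for controls over time, and 4 to 9 for MWCNT rats over time. For MWCNT against control rats, the shares of all genes called higher and lower were also smaller in each fit without 1 rat.

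*Mt-co3* at Year 1 turned from 0.23 to -0.0042 on TPM with either pseudocount, and *Ndufs7* at Year 1, not called with TMM, was lower on TPM (-0.188 and -0.190). As a share of TPM in place of counts, the mtDNA-encoded genes took 7.18, 6.58, and 6.53% in controls and 7.33, 6.64, and 7.20% in MWCNT rats, which is larger because the messages are short. Replicate numbers are shared by the groups, but same-numbered rats did not deviate together (correlations of -0.147 to 0.107 over 9 pairs, of which 1 exceeded 0.1). The replicate block gave 3 nuclear genes lower at Year 0.5 and 0, 3, and 3 mtDNA-encoded genes. Of 4138 values for single genes and ratios under alternatives, 3830 stayed on their side of the threshold, 227 no longer passed, and 77 newly passed. Of the 3830, 3599 kept their sign and 231 changed it while passing in neither fit, mostly with library size alone or on TPM, so no direction is drawn from values that did not pass. A further 4, given above, changed sign with a call in 1 of the fits.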
